A study of Drosophila melanogaster with 12 samples.

Results

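The genes described here are 9 members of the Polycomb and Trithorax groups: E(z), esc, Su(z)12, Pc, Psc, ph-p, Sce, trx and ash1. They were taken by gene name from the array's gene table, and 7 of the 9 had a probe set, 1 each. No probe set was named for ph-p or ash1, so these 2 genes are not analysed here. The 7 genes stand among 11982 genes with a probe set of their own. RNA came from ovaries of virgin Drosophila melanogaster females 4 to 6 h after eclosion, pooled at about 100 pairs per biological replicate, and 4 genotypes were hybridised with 3 replicates each. Canton S and BL15598 served as wild types. The mutants, called A2663/v and Pb/2 below, were sterile and null for su(Hw), the gene of a zinc-finger protein that binds the gypsy insulator. BL15598 is a y[1] w[67c23] stock with the P element EPgy2 inserted in CG6499. Both mutants carry an X chromosome with y[2], w[67c23], ct[6] and f[1]. Pb/2 combines the su(Hw) allele e04061 with allele 2, and A2663/v combines A2663 with an allele that the sample name gives as v and the genotype field as 2. The A2663/v chromosome also carries the EPgy2 insertion of BL15598. By the study's design text, ovaries of this age hold early egg chambers only, younger than those in which mutant cells undergo apoptosis.

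Polycomb group proteins keep developmental genes silent, and Trithorax group proteins keep them active. Polycomb repressive complex PRC2 methylates histone H3 through its catalytic subunit E(z), which needs esc and Su(z)12 for its activity. Pc, a subunit of PRC1, binds that mark through its chromodomain, and its partners Sce and Psc are RING-finger proteins of the complex that ubiquitinates histone H2A. The proteins trx and ash1 are histone methyltransferases that counter this silencing. In the fly ovary, PRC2 is known to act in the germline in silencing and oocyte fate, and Psc with its paralog Su(z)2 restrains the proliferation of follicle stem cells.

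Values are log2 GCRMA signals, the output of a method that removes a background predicted from probe sequence. Signals under a log2 of 5 were read as background, and a gene entered the tests when 3 or more of the 12 arrays exceeded this floor. This left 6163 genes, 6 of them from the 9: E(z), esc, Su(z)12, Pc, Sce and trx, each over the floor on all 12 arrays. Signals of different probe sets cannot be ranked against each other, so each gene is compared only with itself. In both mutants su(Hw) itself lay under the floor on all 6 arrays, at 2.51 to 3.42, against 8.78 to 9.30 in the wild types, at least 16.5-fold lower. All 6 germline marker genes measured were over the floor on every array. In mutants minus wild types, otu (log2 change -0.59, limma adjusted p = 9.17e-07) and nanos (-0.36, limma adjusted p = 0.0023) fell. The others, vas (0.23), bam (-0.23), osk (-0.03) and orb (-0.02), did not pass. By pair, vas rose (0.60) and bam fell (-0.73) in Pb/2 minus BL15598. Against Canton S, only otu passed in either mutant. Of 5 follicle cell markers, 3 were over the floor on every array, mirr was under it in BL15598 and tj was under it in all genotypes. The follicle cell markers eya, zfh1 and mirr were lower in BL15598 than in Canton S. The median log2 change of the 4 tested was -0.54. In mutants minus wild types, eya (0.33, limma adjusted p = 0.0135) and mirr rose, but none of the 4 passed upward against Canton S. Against Canton S, mirr fell in A2663/v (-1.27) and cas fell in Pb/2 (-0.59). The calls for eya and mirr thus rested on BL15598. Digestive enzyme genes, markers of gut, reached mean log2 signals of 6.31 to 7.68 on 4 mutant arrays (A2663/v replicates 1 and 3, Pb/2 replicates 1 and 2), against 2.27 to 4.46 on the other arrays. For GAPDH, a control of RNA quality, the log2 signal at the 3′ end exceeded that at the 5′ end by 2.27 to 2.54 in mutants and by 1.67 to 2.43 in wild types. Of 6 genes listed as fat body markers, the yolk protein genes Yp2 and Yp3 fell in the mutants, and Yp1, Lsp2, Fbp1 and Fbp2 did not pass. The mean log2 signal of the 6 was 7.76 to 8.81 in A2663/v and 9.24 to 9.53 in Pb/2. It was 8.99 to 9.50 in Canton S and 9.59 to 9.85 in BL15598.

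Of the 6 tested genes, trx rose and Pc fell in the mutants, each by about 1.25-fold, and no change reached 2-fold. E(z), esc, Su(z)12 and Sce did not pass the test. The test was limma on a model of 4 genotype means, with Benjamini-Hochberg adjustment over all 6163 genes and a threshold of 0.05. Over all genes tested, 46.9% passed in this comparison, 20.3% higher and 26.6% lower in the mutants, and 5.83% passed with a change of at least 2-fold. With 6 genes, a count of 2 is near this background and is no result about the group. The median size of the log2 change was 0.19 in the 6 genes and also 0.19 over all genes tested. In bulk ovaries, fewer cells of a type and less RNA per cell cannot be told apart.

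The number of genes that passed varied between pairs of genotypes. In A2663/v minus Canton S, 1 of the 6 genes passed, with Pc lower, where 26.9% of all genes passed (12.3% higher, 14.6% lower, 5.76% by at least 2-fold). In A2663/v minus BL15598, 3 passed, with esc and trx higher and Pc lower, where 40.9% of all genes did (21% higher, 19.9% lower, 7.43% by at least 2-fold). In that pair the median size of the log2 change was 0.30 in the 6 genes and 0.26 over all genes tested. Again 1 gene passed in Pb/2 minus Canton S, Pc, which was lower, and 28.5% of all genes did (10.1% higher, 18.4% lower, 5.74% by at least 2-fold). A single gene, trx, passed in Pb/2 minus BL15598, where it was higher and 42.8% of all genes did (17.9% higher, 24.9% lower, 7.67% by at least 2-fold). No gene of the 6 passed with the same sign in all of these 4 pairs, against 9.44% of all genes (4.14% higher, 5.31% lower). In BL15598 minus Canton S, 0 passed in limma, where 25.4% of all genes did (11.2% higher, 14.2% lower, 5.09% by at least 2-fold), and esc and trx, 2 of the 6, were under 0.05 before adjustment. Between the mutants, 0 passed in limma in Pb/2 minus A2663/v, where 8.03% of all genes did (2.95% higher, 5.08% lower, 2.09% by at least 2-fold), and esc and Su(z)12, again 2 of the 6, were under 0.05 before adjustment.

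**Figure D1:**
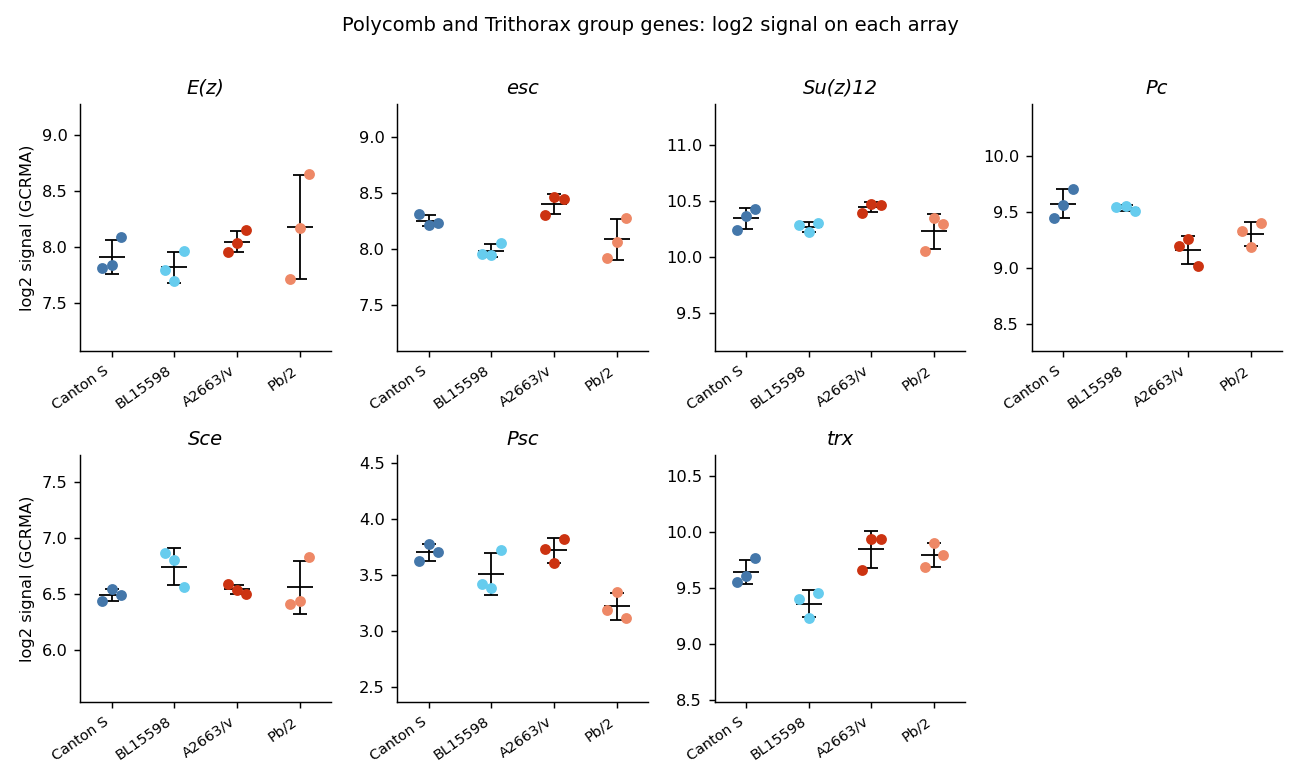
Log2 signal (GCRMA) of the 7 measured genes on each of the 12 arrays, by genotype; points are arrays, and the bars show mean and SD (n = 3). All 6 mutant arrays lie below all 6 wild-type arrays for Pc, trx is lowest in BL15598, and Psc stays under the floor of 5 everywhere.

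Pc, the chromodomain reader of PRC1, was lower in both mutants. Its log2 signal was 9.45, 9.56 and 9.70 in Canton S and 9.54, 9.56 and 9.50 in BL15598. In A2663/v it was 9.19, 9.26 and 9.01, and in Pb/2 it was 9.33, 9.18 and 9.40. The highest mutant array, at 9.40, thus lay just under the lowest wild-type array, at 9.45, and the 2 sides did not overlap. Over all genes tested, 8.31% had all 6 mutant arrays below all 6 wild-type arrays, and 5.35% the opposite. The log2 change of Pc in mutants minus wild types was -0.32 ± 0.07 (SE, 95% interval -0.46 to -0.18, limma adjusted p = 0.00143). The wild types were close to each other, with a log2 difference for BL15598 minus Canton S of -0.04 (95% interval -0.24 to 0.16, limma adjusted p = 0.808). Without the 4 mutant arrays with digestive enzyme signal, which leaves 1 array per mutant and assumes that it varies like the others, the change of Pc was -0.22 (limma adjusted p = 0.113).

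By pair of genotypes, Pc passed in 3 of the 4 that set a mutant against a wild type. It fell by 0.41 on the log2 scale in A2663/v minus Canton S (limma adjusted p = 0.0051) and by 0.38 in A2663/v minus BL15598 (limma adjusted p = 0.00588). In Pb/2 minus Canton S it fell by 0.27 (limma adjusted p = 0.0463), a call that was lost in 17 of 26 alternative analyses. In Pb/2 minus BL15598 the change was -0.23 (95% interval -0.43 to -0.03, limma adjusted p = 0.062), which did not pass. Pairs that share a genotype share its arrays, so these 4 values are not independent. The mutants did not pass as different from each other, at a log2 difference of 0.15 for Pb/2 minus A2663/v (95% interval -0.05 to 0.35, limma adjusted p = 0.392).

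The histone methyltransferase gene trx was higher in the mutants on average. Its log2 signal was 9.56, 9.61 and 9.77 in Canton S and 9.40, 9.23 and 9.46 in BL15598. In A2663/v it was 9.66, 9.94 and 9.94, and in Pb/2 it was 9.69, 9.91 and 9.79. Every mutant array lay above every BL15598 array, while the highest Canton S array, at 9.77, lay above the lowest array of each mutant. On average trx changed in mutants minus wild types by a log2 of 0.32 ± 0.07 (SE, 95% interval 0.16 to 0.47, limma adjusted p = 0.00272).

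The call for trx rested on BL15598. Against that stock, trx rose by a log2 of 0.48 in A2663/v (limma adjusted p = 0.00196) and 0.43 in Pb/2 (limma adjusted p = 0.00408). Against Canton S the changes were 0.20 in A2663/v (95% interval -0.02 to 0.42, limma adjusted p = 0.162) and 0.15 in Pb/2 (95% interval -0.07 to 0.37, limma adjusted p = 0.281), and neither passed. BL15598 itself lay 0.28 below Canton S on the log2 scale (95% interval -0.50 to -0.06, limma adjusted p = 0.057), a difference close to the threshold. With this GAPDH difference as a covariate, the change of trx in mutants minus wild types was 0.05 (limma adjusted p = 0.747), while that of Pc was -0.36 (limma adjusted p = 0.0484). BL15598 had the lowest of these GAPDH values, at 1.67 to 2.00, and their part in the result was not tested beyond this fit. The follicle cell markers eya, zfh1 and mirr were also lower in BL15598 than in Canton S, as given above. Their part in the trx result was not tested.

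**Figure D2:**
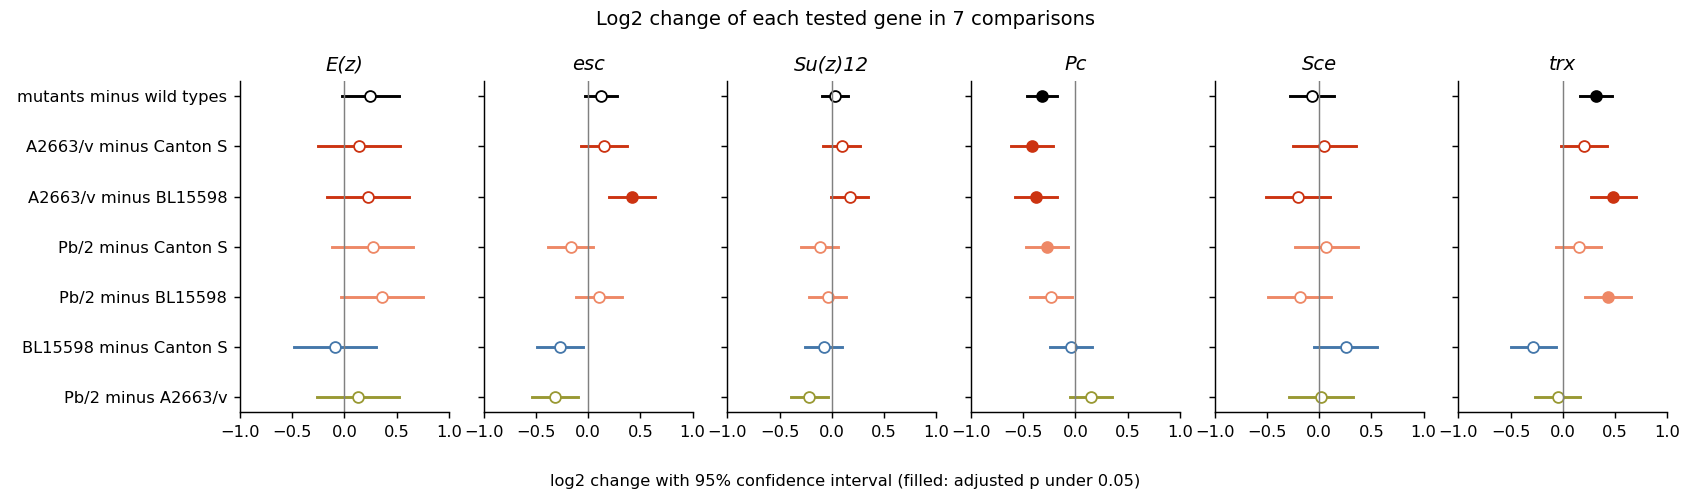
Log2 change of the 6 tested genes in 7 comparisons of genotypes, with 95% confidence intervals from limma; filled points passed at an adjusted p under 0.05. Pc is negative in all 4 mutant and wild-type pairs, trx passes only against BL15598, and nothing passes between the wild types or between the mutants.

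Transcripts of the PRC2 core did not pass in mutants minus wild types. E(z), the catalytic subunit, had log2 signals of 7.81, 7.84 and 8.08 in Canton S and 7.79, 7.70 and 7.97 in BL15598. Signals were 7.96, 8.03 and 8.15 in A2663/v and 7.71, 8.17 and 8.65 in Pb/2. The Pb/2 arrays had an SD of 0.47 (n = 3), and their range took in every array of Canton S and A2663/v. The log2 change of E(z) was 0.25 ± 0.13 (SE, 95% interval -0.03 to 0.53, limma adjusted p = 0.128). Single arrays moved this value: without Pb/2 replicate 1 the change was 0.365 (limma adjusted p = 0.0101), and without Pb/2 replicate 3 it was 0.13 (limma adjusted p = 0.306). Without the 4 arrays with digestive enzyme signal, of which Pb/2 replicate 1 is 1, it was 0.48 (limma adjusted p = 0.0196). It was -0.12 with the GAPDH difference as a covariate (limma adjusted p = 0.731).

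The WD-repeat subunit esc was high in Canton S and A2663/v and low in BL15598. Its log2 signals were 8.31, 8.21 and 8.23 in Canton S and 7.95, 7.95 and 8.05 in BL15598. They were 8.30, 8.46 and 8.44 in A2663/v and 7.91, 8.06 and 8.28 in Pb/2, so that Pb/2 overlapped both wild types. For esc the log2 change in mutants minus wild types was 0.13 ± 0.07 (SE, limma adjusted p = 0.172). Without Pb/2 replicate 3 it was 0.076 (limma adjusted p = 0.381), and over all 25 alternatives it lay between 0.055 and 0.254. In A2663/v minus BL15598, the pair that shares the EPgy2 insertion, esc rose by 0.42 (95% interval 0.20 to 0.64, limma adjusted p = 0.00538). In Pb/2 minus Canton S its change was -0.17 (limma adjusted p = 0.236), and between the mutants it was -0.32 in Pb/2 minus A2663/v (95% interval -0.54 to -0.10, limma adjusted p = 0.0784). The escl gene, a paralog of esc that can replace it in PRC2, had log2 signals of 4.34 to 5.21, around the floor, and a log2 change of -0.10 (limma adjusted p = 0.613).

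Su(z)12, the scaffold subunit of PRC2, had the smallest range of genotype means among the 6 genes. Its log2 signal was 10.25 to 10.43 in Canton S, 10.22 to 10.31 in BL15598, 10.40 to 10.48 in A2663/v and 10.06 to 10.35 in Pb/2. The log2 change in mutants minus wild types was 0.03 ± 0.06 (SE, 95% interval -0.10 to 0.15, limma adjusted p = 0.715). Its mean was highest in A2663/v and lowest in Pb/2, a log2 difference of -0.21 in Pb/2 minus A2663/v (95% interval -0.39 to -0.04, limma adjusted p = 0.144) that did not pass.

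Of the RING-finger genes of PRC1, only Sce was measurable. Sce, the fly Ring1 protein that ubiquitinates histone H2A, had log2 signals of 6.43, 6.54 and 6.49 in Canton S and 6.87, 6.80 and 6.56 in BL15598. In A2663/v they were 6.58, 6.53 and 6.50, and in Pb/2 they were 6.40, 6.43 and 6.83. BL15598 was the genotype with the highest mean, and the others lay within a log2 of 0.07 of one another. The log2 change in mutants minus wild types was -0.07 ± 0.10 (SE, 95% interval -0.28 to 0.15, limma adjusted p = 0.605), and no pair of genotypes passed. The Psc probe set had log2 signals of 3.11 to 3.82 on the 12 arrays, all under the floor. It was not tested, and this says only that the probe set gave no signal over background, not that Psc was absent.

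In the order of genotype means, BL15598 was lowest for E(z), esc and trx and highest for Sce. The range of the 4 means ran from a log2 of 0.21 for Su(z)12 to 0.48 for trx, with 0.36 for E(z), 0.42 for esc, 0.41 for Pc and 0.25 for Sce. The median range over all genes tested was 0.41. For trx the order was A2663/v, Pb/2, Canton S and BL15598, and only the steps from BL15598 to the mutants passed. For esc it was A2663/v, Canton S, Pb/2 and BL15598, and only its 2 ends passed as different. For Pc it was Canton S, BL15598, Pb/2 and A2663/v, where no 2 neighbours passed as different. The SD within a genotype, pooled over the 4, was 0.26 for E(z) and 0.10 to 0.15 for the other 5 genes, against a median of 0.14 over all genes tested.

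Across the 12 arrays, and as a description only, the highest correlation between 2 of the 6 genes was that of esc and Su(z)12 (Pearson's r = 0.75) and the lowest that of Pc and trx (r = -0.62). These arrays share genotypes and RNA pools, so such values carry no test. The genes most correlated with trx over the 12 arrays were C3G (r = 0.97), Rnf146 (r = 0.96) and CG17486 (r = 0.95). For esc they were Drp1 (r = 0.95), IntS9 (r = 0.95) and osa (r = 0.93), and for Pc they were Rab30 (r = 0.92), edl (r = 0.91) and AP-2mu (r = 0.91). Of these, osa is itself a Trithorax group gene, a subunit of the Brahma complex.

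Genes of the same pathway were read from 7 lists of other Polycomb and Trithorax group genes, recruiting factors and related chromatin genes. They held 63 genes, of which 50 were on the array and 45 were tested. In mutants minus wild types, 12 of the 45 rose and 6 fell, 40% against 46.9% of all genes, and none reached 2-fold. Counts in single lists, of 3 to 10 tested genes each, are no result about a complex. The largest change was that of Caf1-55, a histone-binding WD-repeat protein that PRC2 shares with chromatin assembly and remodelling complexes. Its log2 signal was 10.81 to 11.09 in Canton S and 10.74 to 10.97 in BL15598, but 9.94 to 10.10 in A2663/v and 9.65 to 9.94 in Pb/2, with no overlap. The log2 change was -0.98 ± 0.07 (SE, 95% interval -1.12 to -0.83, limma adjusted p = 1.2e-07), or 1.97-fold lower. It passed in all 4 pairs, at -0.84 to -1.11, and lay between -0.91 and -1.01 in all 25 alternatives tried for mutants minus wild types.

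**Figure D3:**
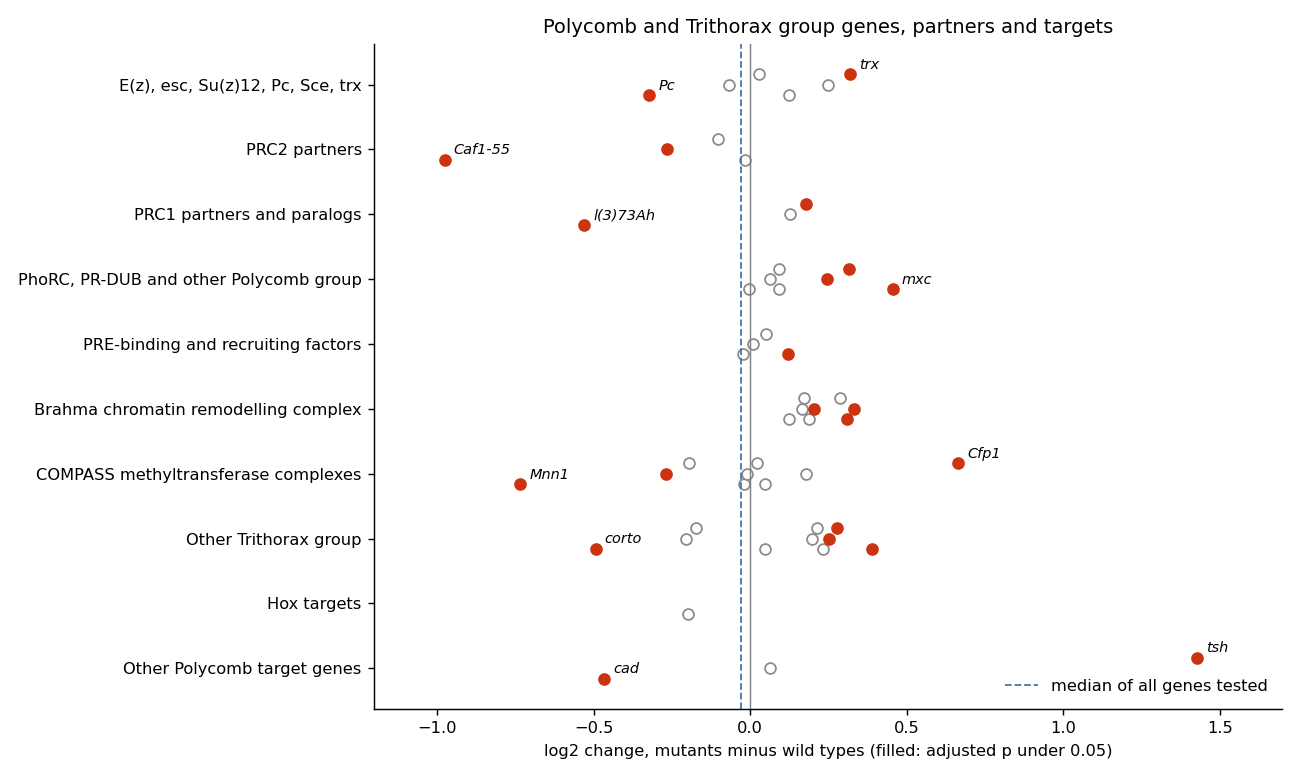
Log2 change in mutants minus wild types of every tested gene in the group, in the lists of partners and in the lists of target genes; filled points passed at an adjusted p under 0.05, and the dashed line marks the median of all genes tested. Caf1-55 lies near -1, the 8 Brahma complex genes all lie above 0, and tsh lies at 1.43.

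Of 4 tested PRC2 partners, Caf1-55 and Jarid2 fell and none rose, where 26.6% of all genes fell and 20.3% rose. Jarid2, a cofactor of PRC2, changed by -0.27 ± 0.05 (SE, limma adjusted p = 0.0012). In A2663/v it lay at 9.91 to 10.02, below both wild types, while Pb/2, at 10.40 to 10.48, lay above all Canton S arrays, at 10.19 to 10.36. The Pb/2 arrays lay below those of BL15598, at 10.61 to 10.82. The log2 change in Pb/2 was therefore 0.19 against Canton S (limma adjusted p = 0.0794), which did not pass, and -0.24 against BL15598 (limma adjusted p = 0.0217). Without the 4 arrays with digestive enzyme signal, the change of Jarid2 in mutants minus wild types was -0.23 (limma adjusted p = 0.0825). Among 3 PRC1 partners, Scm, an SAM-domain protein that binds the Polyhomeotic proteins, rose by 0.18 ± 0.05 (SE, limma adjusted p = 0.0145), and l(3)73Ah, a RING-finger relative of Psc, fell by 0.53 on the log2 scale (limma adjusted p = 0.000753). Neither of these 2 passed with the GAPDH covariate, at 0.08 (limma adjusted p = 0.564) and -0.16 (limma adjusted p = 0.425). By pair, Scm passed in Pb/2 against both wild types but in A2663/v against neither. For l(3)73Ah, Pb/2 minus Canton S (-0.23) did not pass, and BL15598 lay 0.41 above Canton S. Its call in A2663/v minus Canton S was lost in 13 of 26 alternatives.

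In the list with the PhoRC and PR-DUB complexes, 3 of 7 tested genes rose and 0 fell in mutants minus wild types, where 20.3% of all genes rose. They were mxc (0.45 ± 0.08, limma adjusted p = 0.000304), a gene also known for histone locus bodies, sxc, the O-GlcNAc transferase (0.32 ± 0.07, limma adjusted p = 0.0026), and Asx, the partner of the deubiquitinase Calypso (0.25 ± 0.07, limma adjusted p = 0.0102; all log2 changes with SE). The change of sxc was 0.05 (limma adjusted p = 0.742) with the GAPDH covariate, that of Asx was 0.13 (limma adjusted p = 0.464) and that of mxc was 0.50 (limma adjusted p = 0.0216). Against Canton S, mxc (0.35) and sxc (0.38) passed in A2663/v and 0 of the 7 genes passed in Pb/2, where the log2 change of Asx was -0.00083. Asx and mxc were lower in BL15598 than in Canton S, with log2 changes of -0.38 (limma adjusted p = 0.0121) and -0.36 (limma adjusted p = 0.0254), and the call for Asx rested on that stock. The DNA-binding protein phol, a relative of pho, had a log2 change of 0.09 that did not pass (limma adjusted p = 0.336). Of 4 recruiting factors tested, lolal rose by 0.12 ± 0.04 (SE, limma adjusted p = 0.0223), a call lost in 7 of 25 alternatives, among them leaving out BL15598 replicate 2, A2663/v replicate 2 or Pb/2 replicate 2 (0.10 to 0.11). The genes Trl, psq and z, DNA-binding proteins found at Polycomb response elements, had log2 changes of 0.05, -0.02 and 0.01 that did not pass.

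The Brahma complex, the SWI/SNF chromatin remodeller of flies, had 8 tested genes with log2 changes of 0.12 to 0.33 in mutants minus wild types. All 8 were positive, as were 30 of the 45 partner genes, which include these 8. The median log2 change over all genes tested was -0.03. Of the 8, 3 rose, where 20.3% of all genes did. The common sign did not hold in every pair: in Pb/2 minus Canton S the 8 changes ran from -0.25 (osa) to 0.24 (Bap60), and Bap60 alone passed. In BL15598 minus Canton S the median of the list was -0.16, and osa in mutants minus wild types was -0.09 with the GAPDH covariate. Bap60 had signals of 9.71 to 9.81 in Canton S and 9.58 to 9.64 in BL15598, below all mutant arrays, which lay at 9.90 to 10.06. Its log2 change was 0.33 ± 0.05 (SE, limma adjusted p = 0.000125), and it passed in all 4 pairs, although in Pb/2 minus Canton S the call was lost in 6 of 26 alternatives. The ATPase brm rose by 0.31 ± 0.07 (SE, limma adjusted p = 0.0037), with no overlap between the sides, and Snr1 by 0.20 ± 0.06 (SE, limma adjusted p = 0.0127). Neither passed against Canton S in either mutant. With the GAPDH covariate 1 of the 8 passed, Bap60 at 0.31 (limma adjusted p = 0.0213).

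The COMPASS complexes, which methylate histone H3 as trx does, had 9 tested genes, of which Cfp1 rose and Mnn1 and wds fell. Over all genes, 20.3% rose and 26.6% fell. The WD-repeat subunit wds fell by 0.27 on the log2 scale (SE 0.05, limma adjusted p = 0.00103), with no overlap between 9.23 to 9.36 in the mutants and 9.46 to 9.66 in the wild types. It passed in all 4 pairs, but the call was lost in 18 of 26 alternatives for Pb/2 minus Canton S and in 10 of 26 for A2663/v minus Canton S. Cfp1, a CXXC zinc-finger protein, rose by 0.66 ± 0.18 (SE, limma adjusted p = 0.00797), or 0.18 with the GAPDH covariate (limma adjusted p = 0.714). It passed in A2663/v against Canton S (0.75) and BL15598 (1.11), but in Pb/2 against neither (0.22 and 0.58). The call for A2663/v minus Canton S was lost in 9 of 26 alternatives. Mnn1, the fly menin, was over the floor in Canton S only, at 5.73 to 6.19. It lay at 4.30 to 4.71 on the other 9 arrays, so Canton S was at least 1.87-fold higher than each other genotype, and the change in mutants minus wild types (-0.45 with values raised to the floor, limma adjusted p = 0.00154) rested on Canton S. The trr gene, a trx relative, had a log2 change of 0.02 (limma adjusted p = 0.862).

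In the list of other Trithorax group and related chromatin genes, 10 were tested. Mi-2, kis and Iswi, all chromatin remodelling ATPases, rose, and corto fell, where 20.3% of all genes rose and 26.6% fell. The corto gene encodes a chromodomain partner of Polycomb and Trithorax complexes. Its log2 signal was 11.33 to 11.62 in the wild types, 10.62 to 10.86 in A2663/v and 10.99 to 11.31 in Pb/2, with no overlap between the sides. The change was -0.49 ± 0.06 (SE, limma adjusted p = 3.36e-05). It passed in all 4 pairs, but the call for Pb/2 minus Canton S was lost in 18 of 26 alternatives. Mi-2 rose by 0.39 ± 0.07, kis by 0.28 ± 0.06 and Iswi by 0.25 ± 0.09 (log2, SE; limma adjusted p = 0.000956, 0.00206 and 0.0391). The calls for kis and Iswi rested on BL15598, where they lay below Canton S, with log2 changes of -0.38 (limma adjusted p = 0.00544) and -0.48 (limma adjusted p = 0.0162). Neither passed against Canton S in either mutant, and the mean of Iswi in A2663/v (8.94) was below that in Canton S (9.10). Mi-2 passed against Canton S in A2663/v (0.35, limma adjusted p = 0.0277) but not in Pb/2 (0.26, limma adjusted p = 0.0816). With the GAPDH covariate none of these 3 passed, and the changes were 0.06, 0.11 and -0.12. The call for Iswi was lost in 13 of 25 alternatives, 8 of them leaving out a single array (replicate 1 or 2 of Canton S or BL15598, 2 or 3 of A2663/v or Pb/2), with changes of 0.20 to 0.26.

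**Figure D4:**
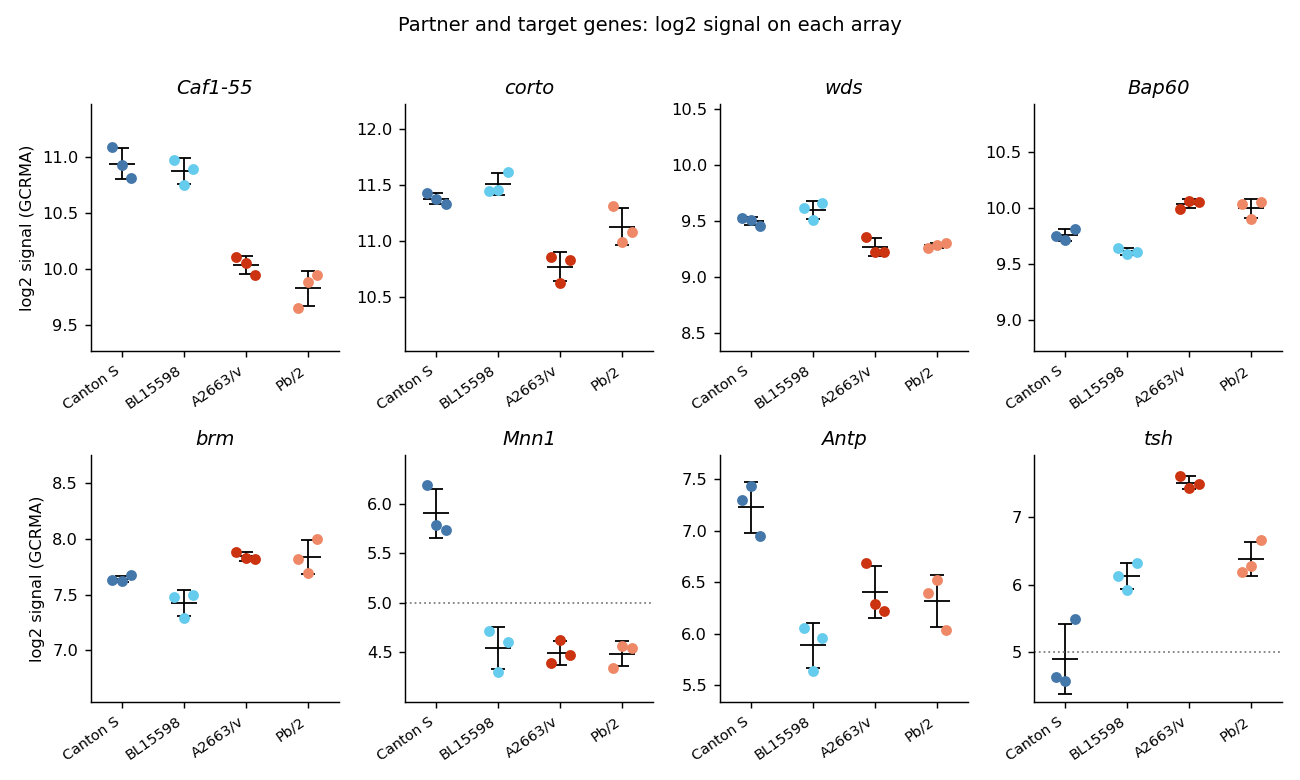
Log2 signal (GCRMA) of 6 partner genes and 2 target genes on each array, by genotype; points are arrays, bars show mean and SD (n = 3), and the dotted line is the floor of 5. Caf1-55, corto and wds are lower and Bap60 and brm higher on all mutant arrays, while Mnn1, Antp and tsh also differ between the wild types.

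Genes known as Polycomb targets in embryos and imaginal discs were mostly at background in every genotype. Of 4 Hox genes on the array, pb, Dfd and Scr lay under the floor on all 12 arrays. Of 13 other targets, 10 did, among them en, inv, eve, Dll and hh, and the highest signal of all 13 genes under the floor was 3.43. Of the other targets tested, ci had a log2 change of 0.06 (limma adjusted p = 0.495). The homeobox gene cad, whose mRNA is loaded into the egg, fell by 0.47 on the log2 scale (SE 0.07, limma adjusted p = 0.000135). Over all genes tested, 26.6% fell. In Pb/2 minus Canton S the change of cad was -0.21, which did not pass, and the arrays of these genotypes overlapped.

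The target gene tsh, a zinc-finger regulator of trunk and appendage identity, was the 1 target gene that rose. Its log2 signal was 4.63, 4.58 and 5.50 in Canton S and 6.12, 5.93 and 6.31 in BL15598. It was 7.60, 7.42 and 7.49 in A2663/v and 6.19, 6.27 and 6.66 in Pb/2. A2663/v was above all other arrays, Pb/2 overlapped BL15598, and Canton S was lowest. The log2 change in mutants minus wild types was 1.43 ± 0.16 (SE, limma adjusted p = 1.16e-05), or 1.29 with values raised to the floor. In Pb/2 minus BL15598 it was 0.25 (limma adjusted p = 0.392), and BL15598 lay 1.22 above Canton S (limma adjusted p = 0.00149). With the GAPDH covariate the change was 0.83 (limma adjusted p = 0.0199).

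Antp, the 1 Hox gene over the floor and named here after its values were seen, was highest in Canton S, at 7.30, 7.43 and 6.95. It was 6.06, 5.64 and 5.96 in BL15598, 6.69, 6.29 and 6.22 in A2663/v and 6.39, 6.52 and 6.04 in Pb/2. The means of both mutants thus lay between those of the wild types, although the lowest Pb/2 array was just under the highest BL15598 array. Antp passed as lower than Canton S in A2663/v (-0.83) and Pb/2 (-0.91), and as higher than BL15598 in A2663/v (0.52). The call against BL15598 was lost in 11 of 26 alternatives. The log2 change in mutants minus wild types was -0.20 ± 0.13 (SE, limma adjusted p = 0.238), while BL15598 minus Canton S was -1.34 (limma adjusted p = 0.000163). These values come from the brightest Antp probe set. Of the others, 1 had a mean log2 signal of 5.89 and a change of 0.02 in mutants minus wild types, and 1 lay at background (2.35).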

How the data were processed

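Ovary RNA was measured on 12 arrays. The deposited values are log2 signals which, per the submitters' processing notes, the authors made with Partek 6.5 and GCRMA. Their order and settings are not stated in the labels. Per the labels' protocols, 50 ng of RNA was amplified before labelling. Array medians lay between 2.52 and 2.58. Arrays have no sequencing depth, and 3 per genotype limit the precision.

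Gene names came from a table of the array platform and were updated by gene identifier in a RefSeq table (Release 6 plus ISO1 MT): 13647 of 18952 probe sets named exactly 1 gene, 402 several, 4720 had no entry and 183 were controls. Each gene was taken from its brightest probe set. No sequences or coordinates were used. limma 3.58.1 in R 4.3.3 fitted 4 genotype means to all 12 arrays with a variance trend, in 7 comparisons adjusted separately, and was tested on simulated data.

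Named are all members and their near paralogs; su(Hw); of each companion list up to 4 genes past the threshold with the largest changes; and the 3 genes most correlated with each of the 3 members of widest range. Marker genes, Pcl, Antp, ci, Trl, psq and z fell outside this rule and were chosen after their values were seen. Members and lists were chosen with earlier results of these data known. No 2 arrays were identical. The labels do not say that equal replicate numbers share animals or days, and deviations of same-numbered arrays correlated above 0.1 in 5 of 18 pairs, so no pairing was used.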

Additional observations from a re-analysis of the deposited data

Results flagged for a closer look

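None of the 6 tested genes E(z), esc, Su(z)12, Pc, Sce and trx passed as different between the mutants. Among the other genes named, marker genes apart, 8 differed between the mutant stocks, by limma on Pb/2 minus A2663/v. Of all genes tested 8.03% did, and of the 45 partner genes 5 did (11.1%). Many named genes were picked for their change or correlation in these data, so the count of 8 is no result about them. The mutant stocks differ in su(Hw) alleles and in the EPgy2 chromosome, which cannot be told apart. Of the marker genes, Fbp1, Fbp2 and Yp1, listed as fat body markers, and the follicle cell marker mirr (0.98) also passed as higher in Pb/2. The germline marker bam (-0.77) and the follicle cell marker cas (-0.68) passed as lower in Pb/2. The part of these marker genes in the differences was not tested. Pb/2 was higher for Jarid2 by a log2 of 0.48 (limma adjusted p = 0.00112), for corto by 0.36 (limma adjusted p = 0.024), for cad by 0.37 (limma adjusted p = 0.0366) and for edl by 0.52 (limma adjusted p = 0.0152). Each of these 4 was lower in mutants than in wild types on average. The difference of Pb/2 minus A2663/v was -1.13 for tsh (limma adjusted p = 0.00638), -0.45 for phol (limma adjusted p = 0.0213), -0.54 for Pcl (limma adjusted p = 0.00428) and -0.48 for osa (limma adjusted p = 0.0114). Pcl, a PRC2 cofactor, was high in Canton S (8.46 to 8.59) and A2663/v (8.54 to 8.65) and low in BL15598 (8.08 to 8.33) and Pb/2 (7.90 to 8.21). It therefore passed upward in A2663/v minus BL15598, at 0.43 (limma adjusted p = 0.00479), and downward in Pb/2 minus Canton S, at -0.46 (limma adjusted p = 0.00448).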

How the results depend on the processing

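The 6 tested genes were refitted under 25 or 26 alternatives per comparison. Of 1086 such values, 1045 kept their side of the threshold, 26 lost a call, 15 gained one and 0 changed sign where a call stood in either fit. Values that passed in neither fit could change sign, as E(z) did in mutants minus wild types with the GAPDH covariate (0.25 to -0.12). In mutants minus wild types, 1 of the 6 passed with the GAPDH covariate in place of 2, and leaving out 1 array gave 2 to 3. In A2663/v minus Canton S, 0 passed without the 4 arrays with digestive enzyme signal. With the GAPDH covariate 0 passed in A2663/v minus BL15598 and 0 in Pb/2 minus BL15598, where leaving out 1 array gave 1 to 2. In Pb/2 minus Canton S, 0 passed without a filter, with cyclic loess, without a variance trend, with the replicate block, with only the arrays compared and with digestive enzyme signal as a covariate, and leaving out 1 array gave 0 to 1. In BL15598 minus Canton S, 1 passed (trx) with arrays centred on their median and 1 (trx) with the replicate block, and leaving out 1 array gave 0 to 1, as in Pb/2 minus A2663/v. The replicate block changed no other count of these genes by over 1.5 times. Of the 45 partner genes, 6 rose without the 4 arrays and 2 with the GAPDH covariate, in place of 12, and leaving out 1 array gave 10 to 15. Of the Brahma complex genes, 5 rose with cyclic loess and 1 with the GAPDH covariate, in place of 3, and leaving out 1 array gave 3 to 6. With the GAPDH covariate Iswi reversed to -0.12 in mutants minus wild types (limma adjusted p = 0.502) and Mi-2 to -0.0019 in Pb/2 minus BL15598 (limma adjusted p = 0.992). Over all genes in mutants minus wild types, 2892 passed, against 1266 with that covariate and 1470 of 5996 without the 4 arrays. The covariate overlaps with genotype, and the cause of these losses was not tested. Signals under the floor carry no order.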

Other observations

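The wild types differed from each other in the partner genes about as often as in all genes. In BL15598 minus Canton S, 11 of the 45 tested partner genes passed (24.4%, against 25.4% of all genes), 9 lower and 2 higher in BL15598. Those lower included the Brahma complex subunit osa (log2 change -0.37, limma adjusted p = 0.0191), the remodeller kis (-0.38, limma adjusted p = 0.00544) and the PRC2 cofactor Pcl (-0.35, limma adjusted p = 0.0254), and Jarid2 was higher (0.43, limma adjusted p = 0.00107).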
